A study of Mus musculus with 6 samples.

Results

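The genes described here are 9 genes of the Wnt pathway, Wnt4, Sfrp2, Ror1, Fzd5, Fzd7, Dvl1, Lef1, Bcl9 and Ctnnbip1. They were taken by symbol from the rows of the value table that carry 1 gene name, and each of the 9 had 1 such row, among 7659 named genes in all. The cells were Melan-a, which are immortalised, pigmented melanocytes of the mouse strain C57BL/6, and their RNA was read on Affymetrix Clariom D mouse arrays. One group was transfected with an siRNA against Dicer (siDicer, 3 arrays) and the other with a control siRNA (siScr, 3 arrays). Dicer is an RNA-cutting enzyme that makes mature microRNAs from their precursors. In both groups the cells grew with 200 nM of the phorbol ester TPA and received 50 pmol of siRNA, and passages 47, 54 and 56 gave 1 array each to either group. The labels give the time as 48 h, while the treatment protocol has a change of medium at 6 h and lysis 24 h later. Melan-a is a single cell line under a transient knockdown, and Dicer1 itself was not analysed here, so the depth of the knockdown is unknown.

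Wnt proteins are secreted ligands that bind Frizzled receptors and, through Dishevelled proteins, keep beta-catenin from being degraded. Beta-catenin then enters the nucleus, where it joins factors of the TCF and LEF family on DNA and turns on target genes. Other branches act without beta-catenin, through receptors such as Ror1 and through planar polarity proteins. In the melanocyte lineage Wnt signals act in the specification of melanocytes from the neural crest, and LEF1 is a partner of MITF on pigment gene promoters.

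The value table covered chromosomes 1 to 4, so beta-catenin, Axin2 and many Wnt receptors and ligands, which lie elsewhere, were not analysed here. The median log2 signal of an array was 4.63 to 4.68, and correlations between arrays were 0.993 to 0.997. The number of arrays limits the precision. All 6 melanocyte markers with a value (Tyrp1, Slc24a5, Mlph, Pax3, Mcoln3 and Hps3) lay above the cutoff for dim genes, with Tyrp1 between log2 12.68 and 12.96. Below that cutoff were 3 of 5 keratinocyte, 3 of 6 fibroblast, 1 of 4 endothelial and 2 of 4 leukocyte markers. The mean of the keratinocyte markers was 4.75 to 4.83 on siDicer arrays and 4.69 to 4.90 on siScr arrays, that of the fibroblast markers 5.61 to 5.84 and 5.66 to 5.86, that of the endothelial markers 5.11 to 5.34 and 5.25 to 5.49, and that of the leukocyte markers 3.51 to 3.61 and 3.53 to 3.67, again siDicer before siScr. Some single markers lay well above these means. The fibroblast marker Fn1 read 10.69 to 10.99 on siDicer arrays and 10.28 to 10.80 on siScr arrays. That was above the melanocyte marker Hps3, at 7.71 to 8.11 and 7.88 to 8.47. The endothelial marker Vcam1 read 6.34 to 6.99 and 6.69 to 7.35. Of all these markers Vcam1 was the 1 that passed with passage as a block, and it fell by 0.37 in siDicer. Its part in the results below was not tested.

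Promoter windows from RefSeq (GRCm38.p6) are shown for Ror1 and Lef1, the pair of the 9 genes that rose with passage as a block. Each window runs from 250 bases before to 50 bases after a listed transcript start, on the plus strand. Capitals mark the core letters that TCF and LEF proteins bind, CTTTGA or CTTTGT, searched on both strands. Every match here lay on the opposite strand and so reads TCAAAG or ACAAAG. For Lef1 the first listed start and start 4, the last one listed and 46.0 kb downstream, are shown because they differ in these letters.
Ror1, chr4:100095541-100095840: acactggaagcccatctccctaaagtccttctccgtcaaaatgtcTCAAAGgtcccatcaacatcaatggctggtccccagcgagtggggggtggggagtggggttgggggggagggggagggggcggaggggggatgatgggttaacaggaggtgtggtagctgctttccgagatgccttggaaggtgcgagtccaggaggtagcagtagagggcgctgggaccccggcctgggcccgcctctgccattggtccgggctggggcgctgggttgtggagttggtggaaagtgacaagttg
Lef1 start 1, chr3:131110047-131110346: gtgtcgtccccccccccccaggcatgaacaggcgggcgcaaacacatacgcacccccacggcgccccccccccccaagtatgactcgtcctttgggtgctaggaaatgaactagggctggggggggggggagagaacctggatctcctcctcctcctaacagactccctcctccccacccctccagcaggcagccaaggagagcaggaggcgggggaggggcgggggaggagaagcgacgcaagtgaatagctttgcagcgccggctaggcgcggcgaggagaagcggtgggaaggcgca
Lef1 start 4, chr3:131156044-131156343: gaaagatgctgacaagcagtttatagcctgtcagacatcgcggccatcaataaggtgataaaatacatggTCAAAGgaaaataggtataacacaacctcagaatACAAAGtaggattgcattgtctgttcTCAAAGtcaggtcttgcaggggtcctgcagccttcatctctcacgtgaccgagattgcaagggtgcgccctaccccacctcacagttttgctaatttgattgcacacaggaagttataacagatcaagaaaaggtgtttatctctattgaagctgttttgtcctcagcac

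The Ror1 window held 1 match, 205 bases before the start. The Lef1 window at start 4 held 3 matches, at 180, 146 and 120 bases before it, with no overlap among them, and the other 3 Lef1 windows held 0. Over the 9 genes, 3 of 13 windows (23.1%) held a match, the third being that of Fzd7. Among all 32851 RefSeq windows of this length 31.2% held at least 1, and 1.14% held 3 or more. Start 4 of Lef1 was shown for its matches, so its 3 beside that 1.14% is a description and cannot serve as a test. Its window was 43.7% G and C, and that of Lef1 start 1 was 67.3%. The array reads Lef1 as a single transcript cluster, so its starts could not be told apart.

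Ror1 and Lef1 were higher in siDicer cells at every passage, Bcl9 was also higher at every passage, Sfrp2 was lower at every passage, and the other five went in both directions. The 4 genes with the same direction at all 3 passages compare with 36.1% of all tested genes, the 3 higher ones with 16.1% and the 1 lower one with 20%. The groups did not overlap for 3 of the 9, Ror1, Bcl9 and Sfrp2, as for 14.5% of all tested genes. Ror1 differed by 1.47-fold, Lef1 by 1.30-fold and Bcl9 by 1.20-fold. In the fit of group alone, 0 of the 9 passed an adjusted p of 0.05 (limma, Benjamini-Hochberg over 5361 tested genes), and 0.0187% of all tested genes passed. An unadjusted p under 0.05 was found for 3 of the 9 and for 8.52% of all tested genes, and with passage as a block for 3 of the 9 and for 13.8%. With passage as a block, 2 of the 9 passed, Ror1 and Lef1, both higher, where 1.73% of all tested genes passed and 1.14% passed as higher. The median difference was 0.10 over the 9 genes and -0.0093 over all tested genes, on the log2 scale. Of the 9 genes 7 were higher and 2 lower, against 45.5% higher among all tested genes. The 9 genes were chosen with earlier results of these data known. Their counts beside those of all tested genes are therefore a description and cannot serve as a test.

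**Figure D1:**
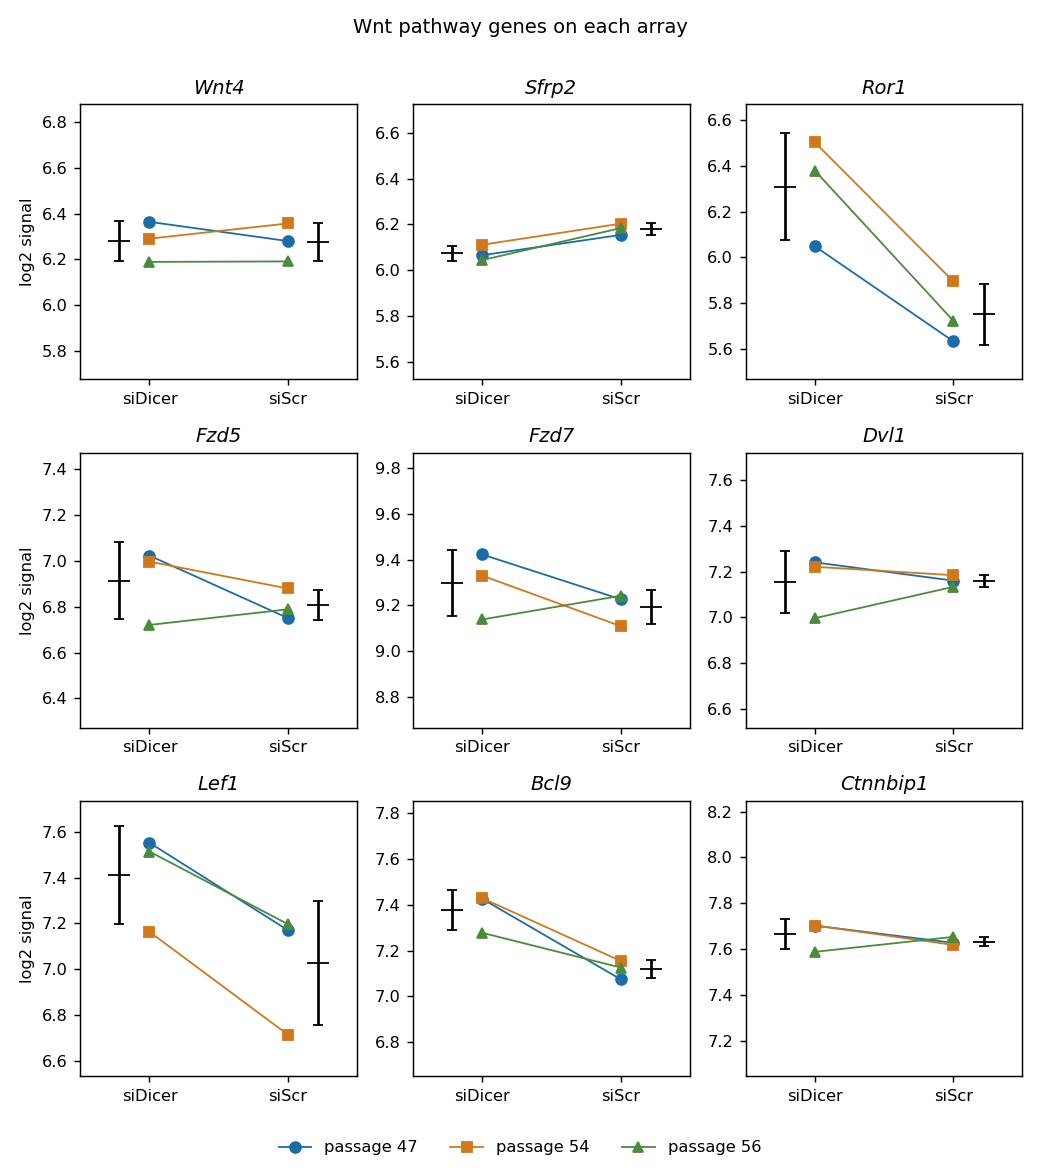
Log2 signal (y axis, the same span in every panel) of the 9 genes on each array, siDicer at left and siScr at right, with a line joining the arrays of a passage and black bars for the mean ± SD of 3 arrays. The lines of Ror1, Lef1 and Bcl9 slope down to siScr at all 3 passages, those of Sfrp2 slope up, and those of the other genes cross or lie flat.

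Wnt4, a secreted Wnt ligand, did not separate the groups. Its log2 signal was 6.36, 6.29 and 6.19 in siDicer at passages 47, 54 and 56, against 6.28, 6.36 and 6.19 in siScr. The group means were 6.28 ± 0.088 and 6.28 ± 0.083 (SD, n = 3), siDicer first, and the values overlapped over nearly their whole range. The difference was 0.0051 with a 95% interval of -0.17 to 0.18. Of the other ligand and secretion genes, Wls, which carries Wnt proteins to the cell surface, was at 8.97, 9.08 and 9.13 in siDicer against 9.28, 9.16 and 9.21 in siScr. The difference of -0.16 did not pass (limma, adjusted p = 0.63), although the groups did not overlap. Trabd2b, a metalloprotease that inactivates Wnt ligands, differed by -0.037. Of the 6 tested genes of this role 3 were higher and 3 lower, and 0 passed in either fit (limma), with 0 at an unadjusted p under 0.05. Among all tested genes 45.5% were higher.

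Sfrp2, a secreted protein that binds Wnt ligands and can keep them from their receptors, was slightly lower in siDicer. It read 6.07, 6.11 and 6.04 in siDicer and 6.15, 6.20 and 6.18 in siScr, with means of 6.07 ± 0.034 and 6.18 ± 0.025 (SD, n = 3). The groups did not overlap, which was so for 7.82% of all tested genes in the lower direction. The difference was -0.11 ± 0.057 (SE) and passed in neither fit (limma, adjusted p = 0.68, and adjusted p = 0.471 with passage as a block). An exact permutation test gave its smallest possible two-sided p, 0.1, which any gene with groups that do not overlap receives. The same test gave 0.1 for Ror1 and Bcl9 and 0.3 for Lef1. All 4 tested genes of the secreted modulators were lower, as were 2922 of all 5361 tested genes. Of these modulators 0 passed in either fit (0 had an unadjusted p under 0.05). Frzb, another Frizzled-related protein, was at -0.049. Lypd6, which enhances signalling at the receptor, was at -0.014, and Rspo1 was at -0.0065. Frzb, Lypd6 and Rspo1 were each higher in siDicer at 1 passage. Lypd6 turned to 0.012 after median centring, and Rspo1 to 0.050 with array weights.

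Ror1, a receptor tyrosine kinase family member that binds Wnt5a and acts without beta-catenin, showed the largest difference of the 9 genes. Its signal was 6.05, 6.50 and 6.38 in siDicer at passages 47, 54 and 56, against 5.63, 5.90 and 5.72 in siScr. The lowest siDicer array was above the highest siScr array, as in 6.68% of all tested genes, and passage 47 was lowest in both groups. Group means were 6.31 ± 0.23 and 5.75 ± 0.13 (SD, n = 3), and the difference of 0.56 had an SE of 0.12 (limma, adjusted p = 0.232). With passage as a block the SE was 0.068 and Ror1 rose (limma, adjusted p = 0.0229), with a 95% interval of 0.40 to 0.72. The differences within passages 47, 54 and 56 were 0.41, 0.61 and 0.65.

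Neither Frizzled receptor, the proteins that Wnt ligands bind at the cell surface, passed the test. Fzd5 was at 7.02, 6.997 and 6.72 in siDicer against 6.75, 6.88 and 6.79 in siScr, and its differences within the passages were 0.27, 0.12 and -0.068. Fzd7 was at 9.42, 9.33 and 9.14 in siDicer against 9.23, 9.11 and 9.24 in siScr, with differences of 0.20, 0.22 and -0.10. Both were higher in siDicer at passages 47 and 54 and lower at passage 56, and the groups overlapped for both. Pooled over passages they differed by 0.11 ± 0.093 and 0.10 ± 0.089 (SE), and neither passed (limma, adjusted p = 0.825 and 0.823, and adjusted p = 0.604 and 0.646 with passage as a block). Leaving out siDicer replicate 3, the array of passage 56, moved them to 0.20 and 0.18, and leaving out siDicer replicate 1 moved them to 0.052 and 0.041.

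Among other receptor genes, Gpc1, a heparan sulfate proteoglycan of the cell surface, had the next largest difference after Ror1. Its signal was 10.90, 10.38 and 10.35 in siDicer against 10.36, 9.90 and 10.15 in siScr. It was higher at every passage, by 0.40 on average, and it passed in neither fit (limma, adjusted p = 0.575, and adjusted p = 0.0763 with passage as a block). Without siDicer replicate 1 its difference was 0.22. Lgr4, a receptor for R-spondins, differed by 0.10, and by 0.16 without siScr replicate 1. Of the 7 tested receptor and co-receptor genes 6 were higher and 1 lower, against 45.5% higher among all tested genes. With passage as a block 1 passed, Ror1, where 1.73% of all tested genes passed.

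Dvl1, a Dishevelled protein that relays the signal from Frizzled receptors, gave no difference between the groups that exceeded their spread. It read 7.24, 7.22 and 6.997 in siDicer and 7.16, 7.18 and 7.13 in siScr, and the siDicer values spanned the siScr values. The difference was -0.0068 with a 95% interval of -0.19 to 0.18, and its sign turned to 0.019 after median centring of the arrays. Ppp2r5a, a regulatory subunit of protein phosphatase 2A, had the smallest p of the cytoplasmic genes. It was at 8.98, 9.14 and 9.01 in siDicer against 9.29, 9.25 and 9.21 in siScr, a difference of -0.21 that did not pass (limma, adjusted p = 0.429). Invs, inversin, which turns signalling away from the beta-catenin branch, differed by -0.080. Of 10 tested cytoplasmic genes 6 were higher and 4 lower, and 0 passed in either fit (limma), with 1 at an unadjusted p under 0.05. Among all tested genes 45.5% were higher, and 8.52% had an unadjusted p under 0.05 (limma), or 13.8% with passage as a block.

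Lef1, the DNA-binding partner of beta-catenin, was higher in siDicer by about as much as it varied between passages. Its signal was 7.55, 7.16 and 7.51 in siDicer at passages 47, 54 and 56, against 7.17, 6.72 and 7.20 in siScr. Passage 54 was lowest in both groups, and the siDicer array of that passage lay below the 2 highest siScr arrays, so the groups overlapped. Group means were 7.41 ± 0.21 and 7.03 ± 0.27 (SD, n = 3), and the passages spanned 0.39 in siDicer and 0.48 in siScr. Within the passages the differences were 0.38, 0.45 and 0.32. Without a block the difference of 0.38 had an SE of 0.15 (limma, adjusted p = 0.549). With passage as a block the SE was 0.061 and Lef1 rose (limma, adjusted p = 0.0345), with a 95% interval of 0.24 to 0.53. All 6 melanocyte markers were also lowest at passage 54 in both groups, with a list mean of 9.92 to 10.41 on siDicer arrays and 10.02 to 10.59 on siScr arrays, and their part in the result was not tested. In bulk RNA a smaller share of cells with a transcript and less of it per cell cannot be told apart.

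Bcl9, which ties beta-catenin to the transcription machinery through Pygopus proteins, was higher in siDicer with groups that did not overlap. It was at 7.43, 7.43 and 7.28 in siDicer against 7.08, 7.16 and 7.13 in siScr, and the within-passage differences were 0.35, 0.27 and 0.15. The difference of 0.26 ± 0.070 (SE) passed in neither fit (limma, adjusted p = 0.288, and adjusted p = 0.125 with passage as a block). Its partner Pygo2 differed by 0.18 (limma, adjusted p = 0.707), with 7.82, 7.58 and 7.49 in siDicer and 7.47, 7.31 and 7.57 in siScr, so that passage 56 went the other way. Leaving out siDicer replicate 1 gave Pygo2 a difference of 0.088, while leaving out siScr replicate 2 gave 0.11, as did array weights.

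Ctnnbip1, a small protein that binds beta-catenin and blocks its contact with TCF and LEF factors, read 7.70, 7.70 and 7.59 in siDicer and 7.63, 7.62 and 7.65 in siScr. The groups overlapped, and the difference of 0.031 had a 95% interval of -0.12 to 0.18. Lzic, a relative of Ctnnbip1, differed by 0.093. Over the 10 tested nuclear factors 7 were higher and 3 lower, with a median difference of 0.029, and with passage as a block 1 passed, Lef1. Among all tested genes 45.5% were higher, the median was -0.0093 and 1.73% passed with the block.

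**Figure D2:**
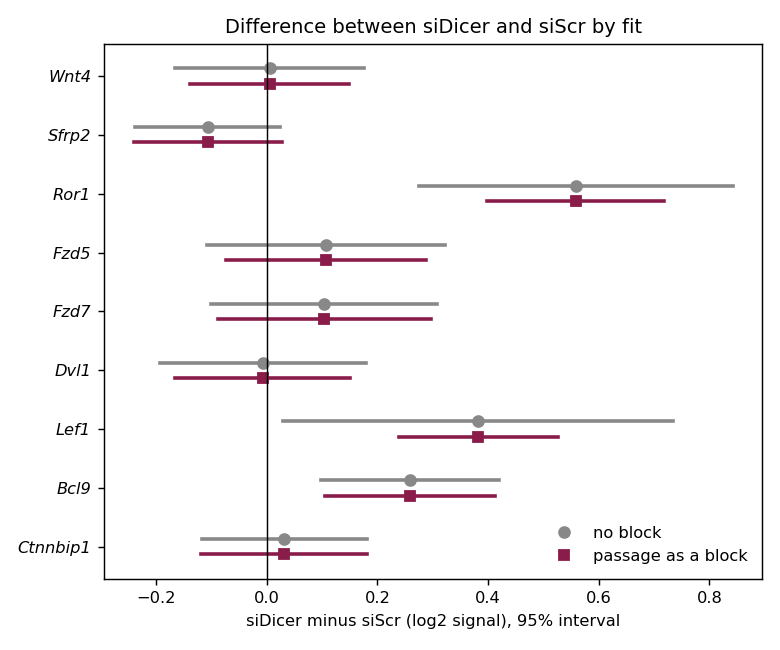
Difference in log2 signal (siDicer minus siScr, x axis) of each of the 9 genes with its 95% interval, from the fit of group alone (grey circles) and with passage as a block (red squares). The interval of Lef1 narrows to 0.24 to 0.53 and that of Ror1 to 0.40 to 0.72, while those of Sfrp2 and Ctnnbip1 are nearly as wide in both fits.

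The wider Wnt list of 52 genes, sorted by role, held 50 with a value and 48 that were tested. Draxin and Macf1 were not analysed here, and Dkk2 and Sp5 were dim. In the fit of group alone 0 of the 48 passed (limma), with 8 at an unadjusted p under 0.05. With passage as a block 3 passed, all higher, and 10 had an unadjusted p under 0.05. Among all tested genes 0.0187% passed without the block and 1.73% with it, and 8.52% and 13.8% had an unadjusted p under 0.05. The median difference of the 48 genes was 0.017, with 30 higher (62.5%) and 18 lower, against a median of -0.0093 and 45.5% higher among all tested genes. These counts include the 9 genes described above. Without them 39 genes were tested, and 0 passed in the fit of group alone and 1 with passage as a block (limma). An unadjusted p under 0.05 (limma) was found for 5 and 7 of the 39. Their median difference was 0.014, with 23 higher (59.0%) and 16 lower.

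Celsr2, a seven-pass cadherin of planar cell polarity, was the third gene that passed with passage as a block. It was at 7.60, 7.33 and 7.49 in siDicer against 7.14, 6.92 and 7.19 in siScr. The groups did not overlap, passage 54 was lowest in both as it was for Lef1, and the differences within the passages were 0.46, 0.41 and 0.30. The rise of 0.39 had an SE of 0.063 in the blocked fit (limma, adjusted p = 0.0345) and of 0.10 without the block (limma, adjusted p = 0.267). The same role, which joins planar polarity and calcium genes, also holds Ppp3ca, the catalytic subunit of the calcium-dependent phosphatase calcineurin. Ppp3ca was lower on every siDicer array, at 8.13, 8.18 and 8.15 against 8.47, 8.32 and 8.33 in siScr. Its difference of -0.22 did not pass (limma, adjusted p = 0.394, and adjusted p = 0.203 with passage as a block). Plcb4, a phospholipase C, went the other way and was named after its values were seen. It was at 7.51, 7.58 and 7.55 in siDicer against 7.46, 7.23 and 7.15 in siScr, with groups that did not overlap and differences within the passages of 0.050, 0.35 and 0.40. Its difference of 0.27 did not pass (limma, adjusted p = 0.42, and adjusted p of 0.20 in the blocked fit). Of the polarity and calcium genes 5 were higher and 3 lower, against 45.5% higher among all tested genes.

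Of 4 listed target genes of beta-catenin 3 were tested. All 3 were higher without passing (limma), against 45.5% higher among all tested genes. An unadjusted p under 0.05 (limma) was found for 0 in the fit of group alone and 2 with passage as a block. Among all tested genes the shares were 8.52% and 13.8%. Cd44, a hyaluronan receptor, was at 8.61, 8.40 and 8.59 in siDicer against 8.47, 8.25 and 8.41 in siScr, a difference of 0.16 (limma, adjusted p = 0.699, and adjusted p = 0.313 with passage as a block). Jag1, a ligand of Notch receptors, was at 6.32, 6.51 and 6.28 in siDicer against 6.07, 6.38 and 6.20 in siScr, a difference of 0.15 (limma, adjusted p = 0.74). Both were higher within each passage, and for both the groups overlapped. Without siScr replicate 2 the difference of Cd44 was 0.096, and with array weights it was 0.099. That of Jag1 was 0.080 without siScr replicate 1, 0.085 without siDicer replicate 2 and 0.24 without siScr replicate 2. Jun, the remaining tested target gene, differed by 0.034. Its difference was -0.0052 within passage 56 and -0.0019 without siDicer replicate 2.

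**Figure D3:**
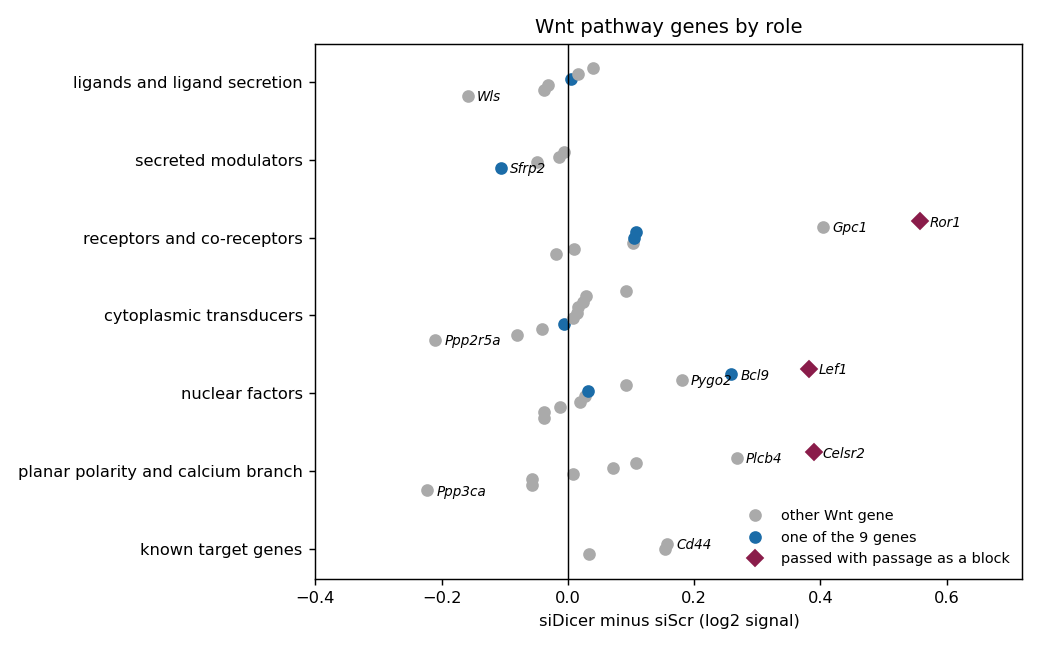
Difference in log2 signal (siDicer minus siScr, x axis) of the 48 tested Wnt genes by role, with red diamonds for the 3 that passed with passage as a block (Ror1, Lef1 and Celsr2), blue circles for the others of the 9 genes and grey circles for the rest of the list. Most genes lie near 0, and the 4 secreted modulators all lie below it, with Lypd6 at -0.014 and Rspo1 at -0.0065.

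The calls of Ror1, Lef1 and Celsr2 changed with the passages in the blocked fit. Without passage 47 Ror1, Lef1 and Celsr2 were at 0.63, 0.38 and 0.35 and none passed (limma, adjusted p = 0.071, 0.195 and 0.207). Without passage 54 they were at 0.53, 0.35 and 0.38 and none passed (limma, adjusted p = 0.0629, 0.169 and 0.146). Without passage 56 they were at 0.51, 0.41 and 0.43 and all 3 passed (limma, adjusted p = 0.0167, 0.0261 and 0.0228). When dim genes were kept in the blocked fit Ror1 passed (limma, adjusted p = 0.0423), while Lef1 and Celsr2 were at an adjusted p of 0.0572. With 1 array left out and no block, the difference of Lef1 ran from 0.23 without siScr replicate 2 to 0.51 without siDicer replicate 2, and array weights gave 0.24. Over all alternatives the adjusted p (limma) ran from 0.0167 to 0.528 for Ror1, from 0.0261 to 0.784 for Lef1 and from 0.0228 to 0.563 for Celsr2.

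**Figure D4:**
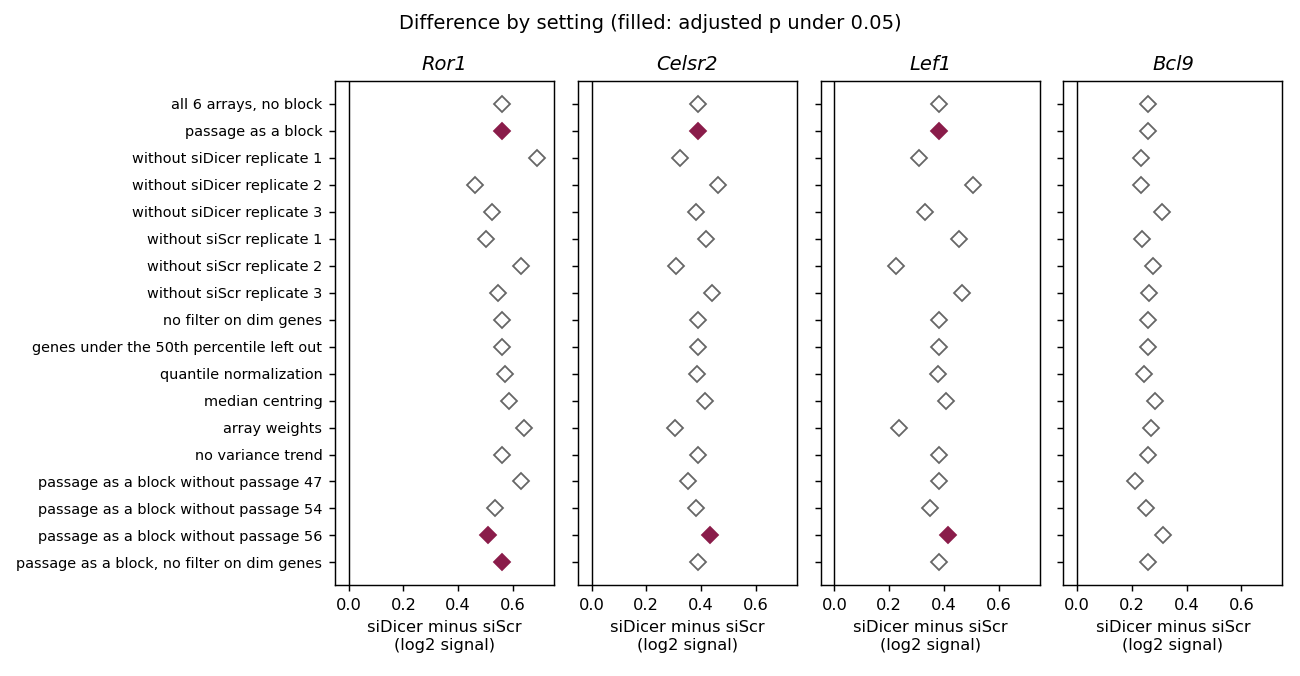
Difference in log2 signal (siDicer minus siScr, x axis) of Ror1, Celsr2, Lef1 and Bcl9 under each setting (rows), with filled diamonds where the limma adjusted p was under 0.05. All values are above 0, and the filled ones are found with passage as a block.

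Likeness of pattern was measured as Pearson's r of the log2 signal over the 6 arrays, among 3532 other tested protein-coding genes, and is given as a description, since the arrays fall into 2 groups and share passages. Closest to Lef1 were Naif1 (r = 0.999), a nuclear factor that induces apoptosis, St6galnac3 (r = 0.994), a sialyltransferase, and Nfe2l2 (r = 0.994), the regulator of antioxidant genes. Naif1 read 6.97, 6.84 and 6.96 in siDicer against 6.85, 6.67 and 6.85 in siScr, a smaller difference than that of Lef1 at 0.13, and St6galnac3 differed by 0.48. Closest to Ror1 were Pfkfb3 (r = 0.980), which sets the level of a glycolytic activator, Coro2a (r = 0.974), an actin-binding coronin, and Slc40a1 (r = 0.967), the iron exporter, with differences of 0.18, 0.41 and 0.50. St6galnac3, Coro2a and Slc40a1 rose in the blocked fit (limma, adjusted p of 0.0289, 0.0299 and 0.0345). Naif1, Nfe2l2 and Pfkfb3 did not pass. These genes were picked for likeness to Lef1 or Ror1 over the same 6 arrays, and that choice itself favours a difference between the groups. Their calls are therefore a description and cannot serve as a test.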

How the data were processed

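RNA of 3 siDicer and 3 siScr samples was measured on 1 array each. The authors deposited log2 signals per transcript cluster, already on a common scale. Affymetrix Expression Console is named, without a version, in the submitters' processing notes. Summarisation, centring and genome build: not given in the sources used here. The log2 scale was inferred from the range of 1.70 to 13.70.

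Of 16383 clusters 7715 had 1 gene, 270 several and 8398 none, after symbols were updated through RefSeq, and old and new names of 1 gene in a cell (185 clusters) counted as 1. The row with the highest mean was kept for each of 7659 genes, and 5361 genes were tested, after dropping as dim those with a mean below the 30th percentile, log2 4.15. Tests used limma 3.58.1 under R 4.3.3 (lmFit, eBayes with a trend, two-sided, Benjamini-Hochberg, threshold 0.05). The code was tested on simulated data whose planted differences were larger than those of the Wnt genes here. Recovery at the size of these differences was not tested. A test of 3 arrays against 3 cannot give an exact permutation p below 0.1. The main fit used group alone, without pairing. In the blocked fit samples were paired by replicate number, because each number stands for 1 passage in both groups, per the labels. Deviations from the group means correlated at 0.42, 0.62 and 0.070 for replicates 1, 2 and 3. Between unlike numbers they ran from -0.54 to 0.29, the highest being siDicer replicate 1 with siScr replicate 3. Alternatives were passage as a block, 1 array left out, no or a stricter dim filter (50th percentile), quantile normalization, median centring, array weights and no trend. Promoter windows are those of RefSeq, with all 9 genes matched.

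The text names the 9 genes, list genes that passed in either fit, and per role the 2 genes outside the 9 with the smallest p (passed genes included). It also names the 3 genes most like Lef1 and the 3 most like Ror1. Plcb4, Rspo1 and Jun were named after their values were seen. The genes and lists were chosen with earlier results of these data known.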

Additional observations from a re-analysis of the deposited data

How the results depend on the processing

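Over the 9 genes and 16 alternative settings each, 132 of 144 differences kept their sign and their side of the threshold. The 4 that passed were those of Lef1 and Ror1 with passage as a block, over all passages and without passage 56, and the 8 that changed sign were those of Wnt4 and Dvl1, whose differences are near 0. The block over all passages, the other dim filters and the fit without a trend leave each difference as it was, so no sign could change there. As 0 of the 9 passed in the main fit, keeping their side meant still not passing. The blocked fit with dim genes kept in is not among the 16 settings, and there Ror1 also passed (limma, adjusted p = 0.0423). Wnt4 ran from -0.037 to 0.051 with 1 array left out and was at -0.034 with passage as a block without passage 47. Dvl1 ran from -0.051 to 0.071 with 1 array left out and was at 0.019 after median centring, 0.010 with array weights and 0.058 with passage as a block without passage 56. Over all tested genes 1 passed (limma), with 0 to 2 when 1 array was left out, 14 with array weights and 93 with passage as a block. The block count was 5, 19 and 153 without passages 47, 54 and 56, and 22 with dim genes kept in. Of the 9 genes 2 passed with the replicate block, 2 without passage 56 and 1 with dim genes kept in. Of the wider list 3 passed with the block, 4 without passage 56 (with Gpc1 among them) and 1 with dim genes kept in. Neither count changed from 0 in the other settings, the block without passage 47 or 54 among them. The counts without a passage and the blocked fit with dim genes kept in were chosen after seeing the data. The block changed no other call among the 9 genes. Scanner files were not used here, so signal over background was not measured.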
